A study of Mus musculus with 67 samples.

Results

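Some genes had more RNA in cultured mouse microglia given thapsigargin and phorbol dibutyrate (Tg+PDBu) than with vehicle. By the rule below, 66 of them kept at least 0.8 of that increase in Orai1 KO cultures. There the calcium channel subunit Orai1 was targeted for deletion, and its loss was not checked here. These 66 genes were chosen from the culture measurements by a rule on the level L, the log2 of CPM plus 1, where CPM is a count scaled to a common library total. The mean L had to be at least 2 higher with Tg+PDBu than with vehicle in WT cultures. It had to differ by less than 1 between LPS and vehicle in WT cultures. The change with Tg+PDBu in KO cultures had to be at least 0.8 of the WT change. Of 45707 genes in the table, 28306 had a count in any culture library, 261 met the requirement on the WT rise, 141 also met that on LPS, and 66 also met that on KO, so that an upper limit of 150 genes was not reached. The other 75 of the 141 genes are called not retained below. The files do not pair the rows of the tables with gene names or identifiers, so each gene is given by its row number counted from the top. The roles and sequences of the genes, the level of Orai1 itself, markers of microglia and of other cell types, and pathway lists are therefore not analysed here.

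As background, Orai1 forms the pore of the store-operated calcium channel. When calcium in the endoplasmic reticulum falls, STIM sensor proteins open Orai channels in the plasma membrane, and the calcium that enters activates calcineurin, which sends NFAT transcription factors to the nucleus. Thapsigargin blocks the pump that fills these stores, which opens the channel, and loss of store calcium is also known to disturb protein folding and to start the unfolded protein response. Phorbol dibutyrate activates protein kinase C directly. Lipopolysaccharide (LPS), a bacterial cell wall component, acts on microglia through Toll-like receptor 4 and NF-κB.

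KO animals carried floxed Orai1 alleles and a tamoxifen-inducible Cre recombinase driven from Cx3CR1 (Orai1fl/fl Cx3CR1-cre/ERT2), and WT animals carried the floxed alleles alone (Orai1fl/fl). Both genotypes received tamoxifen, in culture as OH-tamoxifen at 1 µM. Only KO animals carried Cre, so loss of Orai1 and presence of Cre cannot be told apart. Cultured microglia came from the hippocampus of newborn mice and were shaken off mixed glia, and were treated for 6 h with Tg at 0.2 µM plus PDBu at 50 nM, with LPS at 10 ng/ml, or with DMSO as vehicle. KO cultures gave 5 Tg+PDBu, 5 LPS and 6 vehicle libraries, and WT cultures gave 6 of each, 3 per sex except for 2 KO female libraries each with Tg+PDBu and LPS. Microglia sorted from whole brain came from adults of 10 to 12 weeks, which had last received tamoxifen 30 to 35 days earlier and were then given LPS at 1 mg/kg or saline vehicle. KO mice gave 6 vehicle libraries, 3 libraries at 6 h and 7 at 24 h, and WT mice gave 6, 3 and 8. The 6 h libraries were all from males, and other animals gave each time.

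Library totals were 7868694 to 16070721 counts in culture and 4989974 to 7596706 counts in sorted cells. No pair of libraries of the same group agreed within counting noise. Culture libraries are labelled polyA RNA and sorted libraries total RNA made with another kit, so levels were not compared between the tables. Rows were matched between the tables by position. Mean levels over all libraries correlated across 26168 genes at Spearman rho 0.853 in the matched order, against 0.328 to 0.340 with 1 table shifted by 1 to 3 rows. Of 18 male and 16 female culture libraries, 13 female libraries showed 4 male-specific rows at no more than 0.0436 of the male mean. The 3 libraries labelled WT female culture 3 showed them at 0.415 to 0.563 of it, and counts that moved by over 1.5 times without this culture are given without it. The library numbers of vehicle and 24 h animals fell into 2 runs that each held both, and the 6 h animals had numbers of their own, so that time and number run cannot be told apart at 6 h. In whole-population RNA of this kind, fewer cells expressing a gene and less RNA per cell cannot be told apart. Where the labels do not say that libraries came from separate animals or cultures, p-values measure only the spread between these libraries, which may be technical.

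The rise with Tg+PDBu chose the 66 genes and is given as a description. In KO cultures the change in L was 1.70 to 5.51, with a median of 2.53, and in WT cultures it was 2.01 to 4.80, with a median of 2.42. The ratio of the KO change to the WT change had a median of 0.994 and reached 1.93, with 30 genes at or above 1 and 36 below. In the TMM fit described below, the KO change was the smaller one for 49 of the 66 genes. Applied to TMM-scaled values, the rule gave 68 genes, of which 49 were shared with the 66. The change with LPS in WT cultures ran from -0.998 to 0.997, with a median of -0.16. Genes lay close to every threshold. The smallest WT change inside the rule was 2.01 (row 12218) and the largest outside it was 1.97 (row 6196). The KO to WT ratio was 0.816 at the last gene inside (row 7232) and 0.790 at the first gene outside (row 5049). The change with LPS was 0.998 in size for row 11558 inside the rule and 1.005 in size for row 4759 outside it. The plot of the KO change against the WT change shows the retained genes as the upper part of a continuous cloud.

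**Figure D1:**
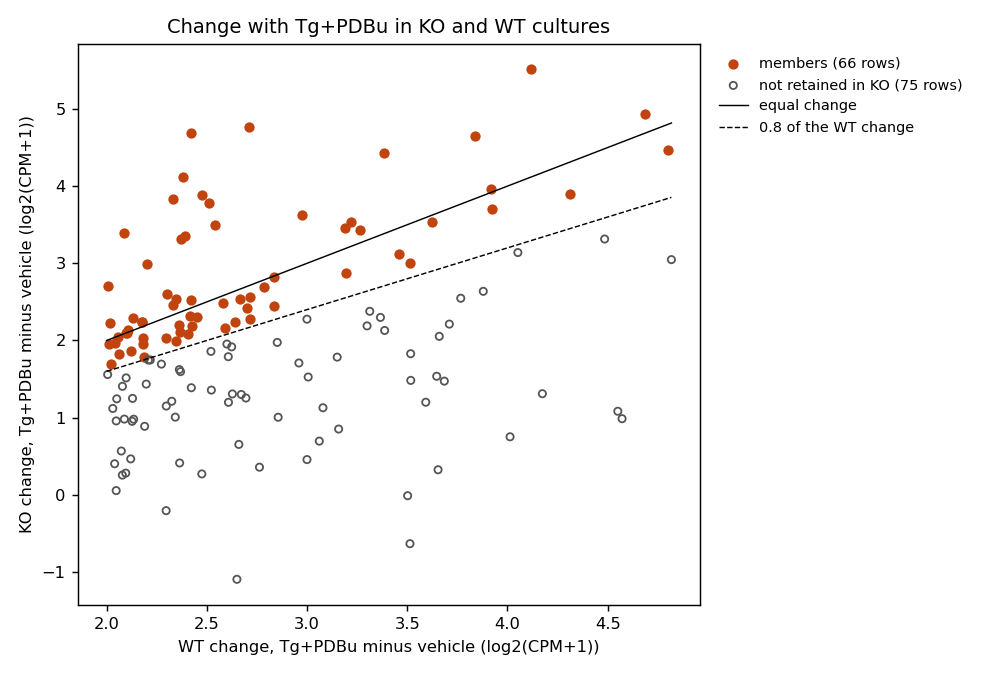
Each point is a gene, with the WT change (x axis) and the KO change (y axis) between Tg+PDBu and vehicle in log2(CPM + 1). Filled points are the 66 retained genes, open points the 75 not retained, the solid line marks equal change and the dashed line 0.8 of the WT change; retained genes lie on both sides of the solid line.

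Levels before treatment spanned a wide range. The WT vehicle mean was under 1 CPM for 11 genes, 1 to 10 CPM for 26, 10 to 100 CPM for 20 and at least 100 CPM for 9. Over the 66 genes the median of the mean CPM was 116 with Tg+PDBu and 15.7 with vehicle in KO cultures, and 52.7 with Tg+PDBu and 8.45 with vehicle in WT cultures. Together the 66 genes took 3.13 to 3.72% of all counts in KO Tg+PDBu libraries, against 0.368 to 0.437% in KO vehicle libraries. They took 3.35 to 4.38% in WT Tg+PDBu libraries, against 0.309 to 0.387% in WT vehicle libraries. The share thus lay far apart between treatment and vehicle in both genotypes. With LPS it was 0.382 to 0.471% in KO and 0.328 to 0.416% in WT cultures, and overlapped the vehicle range in both.

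Row 5811 had the largest WT change. With Tg+PDBu it also took the largest share of counts, and it weighs most on the Tg+PDBu sums. It held 13431, 13184, 15334, 13151 and 14064 CPM in KO Tg+PDBu libraries, against 583 to 710.3 CPM with a median of 606 CPM in KO vehicle libraries. In WT cultures it held 16724 to 23123 CPM (median 18708) with Tg+PDBu, against 588 to 789 CPM (median 670.0) with vehicle. Treatment and vehicle did not overlap in either genotype, and the KO Tg+PDBu libraries all lay below the WT ones. Without this row the other 65 genes took 1.81 to 2.19% of counts in KO and 1.68 to 2.07% in WT Tg+PDBu libraries. Row 5034 had the next largest WT change. It held 635, 785, 717, 698 and 794 CPM in KO Tg+PDBu libraries, against 18.7 to 28.3 CPM (median 21.9) with vehicle. In WT cultures it held 562 to 755 CPM (median 641) with Tg+PDBu, against 17.7 to 36.6 CPM (median 23.8) with vehicle. For this gene the KO and WT ranges overlapped under both conditions. Row 2281 came next to row 5811 in share of counts with Tg+PDBu. It held 3947, 3205, 4499.7, 3164 and 3718 CPM in KO and 3398 to 4779.7 CPM (median 3672) in WT Tg+PDBu libraries. With vehicle it held 603 to 687 CPM in KO and 583 to 683 CPM in WT libraries. Its KO and WT ranges also overlapped throughout.

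**Figure D2:**
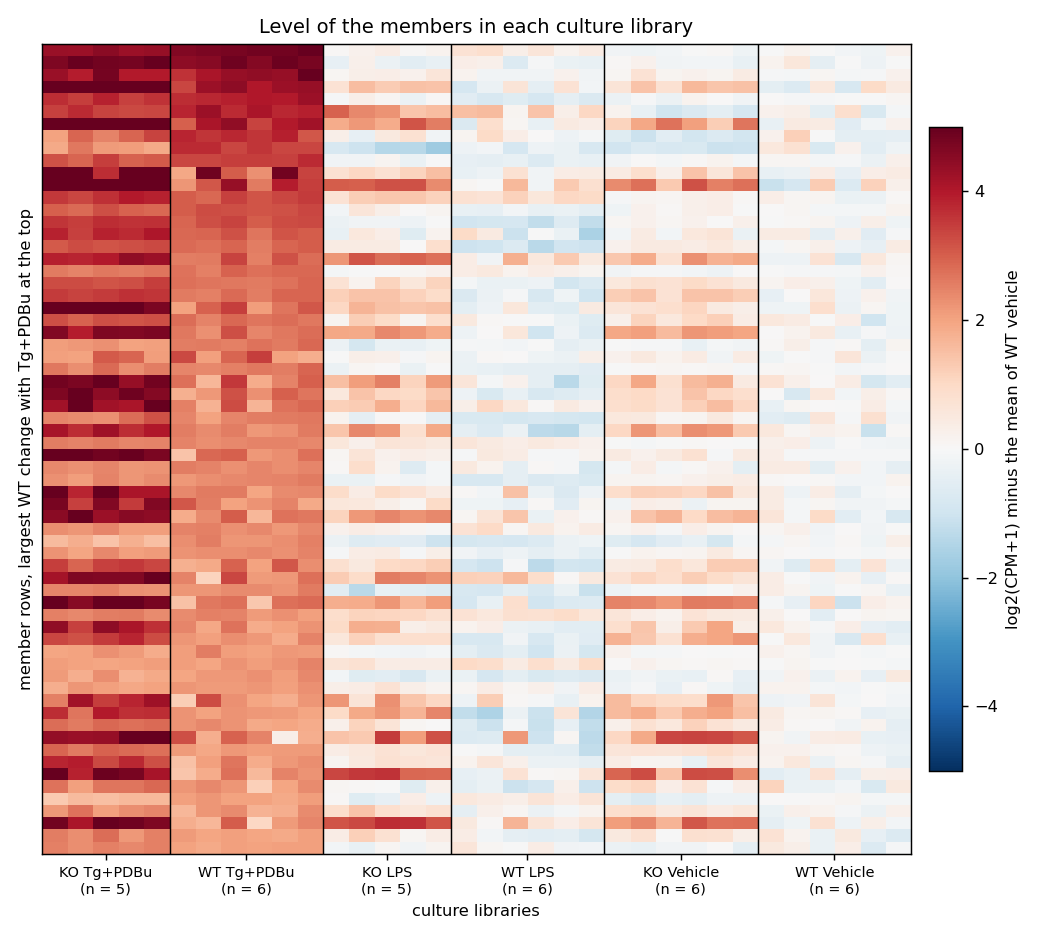
Rows are the 66 genes and columns the 34 culture libraries, ordered KO Tg+PDBu, WT Tg+PDBu, KO LPS, WT LPS, KO vehicle and WT vehicle; colour is log2(CPM + 1) minus the mean of the 6 WT vehicle libraries. The Tg+PDBu libraries of both genotypes stand apart from the rest.

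The genes with the highest ratio of KO to WT change were rows 3460 and 1568, and both were scarce in WT cultures. This ratio is taken on L, with 1 CPM added. In the TMM fit described below, the change of row 3460 was instead the larger one in WT. In that fit, 14 genes with a ratio of at least 1 had a smaller change in KO than in WT. Row 3460 held 35.7, 54.7, 29, 31 and 26.3 CPM in KO Tg+PDBu libraries, against at most 0.798 CPM with vehicle. In WT cultures it held 1.8 to 7.43 CPM (median 5.17) with Tg+PDBu, and its vehicle libraries were at 0 except 1 at 0.330 CPM. The KO Tg+PDBu libraries all lay above the WT ones. Row 1568 held 95.9, 87, 66.8, 52 and 39.4 CPM in KO Tg+PDBu libraries, against 0.871 to 2.28 CPM (median 1.42) with vehicle. In WT cultures it held 5.13 to 15.9 CPM (median 9.79) with Tg+PDBu, against 0.262 to 1.75 CPM (median 0.327) with vehicle. Here too the KO Tg+PDBu libraries lay above every WT library. Row 7232, at the lower end of the ratio, held 29.2, 26.1, 32.4, 41.1 and 27.7 CPM in KO Tg+PDBu libraries, against 3.99 to 12.8 CPM (median 9.21) with vehicle. In WT cultures it held 9.7 to 15.4 CPM (median 12.7) with Tg+PDBu, against 0.721 to 4.28 CPM (median 1.77) with vehicle. Its KO libraries were the higher ones with Tg+PDBu, and its lower ratio came with a higher KO vehicle level. Row 1217 went by the largest fitted log2 change in WT. It held 21.8, 16.4, 30.4, 16.8 and 16.9 CPM in KO and 13 to 36.5 CPM (median 22.5) in WT Tg+PDBu libraries, against 0.221 to 0.87 CPM in KO and 0.0656 to 0.324 CPM in WT vehicle libraries. So few counts lie behind the vehicle values of rows 3460 and 1217 that no fold is given.

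The rise was seen in every culture. Taken within the cultures that gave both Tg+PDBu and vehicle libraries, the median change in L over the 66 genes was 2.546 to 2.703 in 4 KO cultures and 2.261 to 2.770 in 6 WT cultures. All 66 genes were above 0 in each of these cultures. In a fit across 15979 genes (edgeR's quasi-likelihood test with TMM scaling, Benjamini-Hochberg adjusted p below 0.05 as the call), 66 genes were called higher in KO and 66 in WT, where 17.9% and 24.1% of all tested genes were called higher. No weight is put on these counts, since the same contrast chose the genes.

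**Figure D3:**
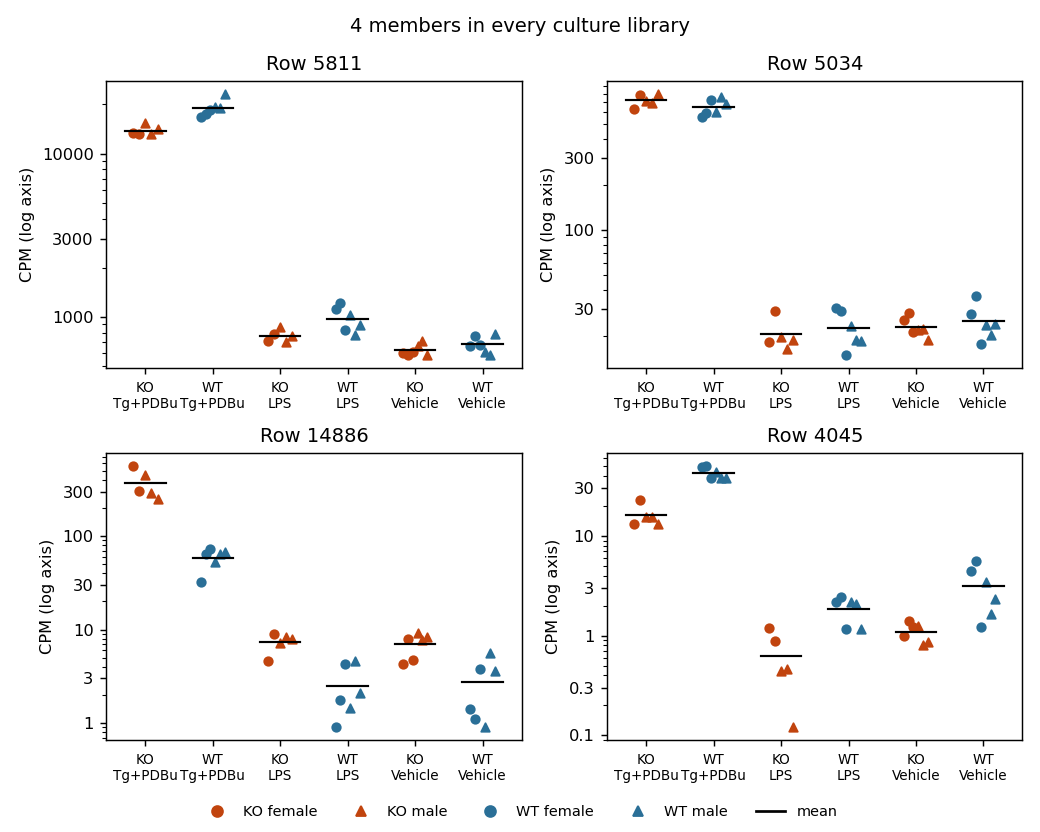
CPM on a log axis in every culture library for rows 5811, 5034, 14886 and 4045, with KO left of WT within each condition. Points are libraries (circles female, triangles male) and lines are group means; row 14886 is higher in KO and row 4045 higher in WT in every Tg+PDBu library.

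A retained change did not mean an equal level. The rule used these libraries, so the comparison of KO with WT is also given as a description. With Tg+PDBu, 26 of the 66 genes were called higher (39.4%) and 20 lower (30.3%) in KO than in WT, against 28.3% and 28.6% of all tested genes. With vehicle, 30 were called higher (45.5%) and 11 lower (16.7%), against 30.1% and 23.7% of all genes. With LPS, 27 were called higher (40.9%) and 16 lower (24.2%), against 33.3% and 30.1%. Libraries did not overlap at all, on CPM, for 33 genes higher and 6 lower with Tg+PDBu (33.7% and 8.14% of all genes) and for 19 higher and 2 lower with vehicle (23.1% and 7.97%). Nothing particular to the 66 genes is read from these shares, since the rule used the same libraries. The balance moved with the scaling. TMM scaling lowers the KO over WT difference of every gene by 0.40 (log2) with Tg+PDBu, by 0.18 with vehicle and by 0.58 with LPS relative to library totals. With library totals as the scale, an alternative chosen after seeing the data, 35 genes were called higher and 9 lower with Tg+PDBu, 34 and 4 with vehicle, and 44 and 7 with LPS. The vehicle count of lower genes was 17 without WT female culture 3, and it was 7 without either KO male vehicle replicate 3 or WT female vehicle replicate 2.

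By requiring a similar change in both genotypes, the rule ties the KO to WT difference with Tg+PDBu to that with vehicle, so their likeness is no result. In the TMM fit 23 genes were called higher in KO with both vehicle and Tg+PDBu, and 10 were called lower with both. A further 7 were higher and 1 lower with vehicle alone, 3 higher and 10 lower with Tg+PDBu alone, and 12 were called in neither. Row 14886 held 561, 305, 451, 289 and 251 CPM in KO and 32.5 to 72.6 CPM (median 64.1) in WT Tg+PDBu libraries. With vehicle it held 4.31 to 9.23 CPM (median 7.82) in KO and 0.918 to 5.59 CPM (median 2.52) in WT. The genotypes did not overlap with Tg+PDBu and overlapped with vehicle. Row 1696 held 137, 128, 134, 213 and 378 CPM in KO and 6.95 to 60.6 CPM (median 28.7) in WT Tg+PDBu libraries. With vehicle it held 12.5 to 67.4 CPM (median 60.8) in KO and 3.96 to 7.8 CPM (median 5.53) in WT. KO libraries lay above WT libraries under both conditions. Row 4045 went the other way, with 13.2, 22.8, 15.6, 15.4 and 13.2 CPM in KO and 37.8 to 50.1 CPM (median 41.2) in WT Tg+PDBu libraries. With vehicle it held 0.807 to 1.41 CPM (median 1.1) in KO and 1.23 to 5.57 CPM (median 2.91) in WT. The KO range lay below the WT range with Tg+PDBu and overlapped it at its edge with vehicle. Row 19137 held 8.43, 16.6, 12.1, 16.6 and 23.3 CPM in KO and 19.4 to 33.2 CPM (median 29) in WT Tg+PDBu libraries. With vehicle it held 0.109 to 0.607 CPM (median 0.349) in KO and 0.656 to 4.39 CPM (median 1.03) in WT. The genotypes overlapped with Tg+PDBu and not with vehicle.

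**Figure D4:**
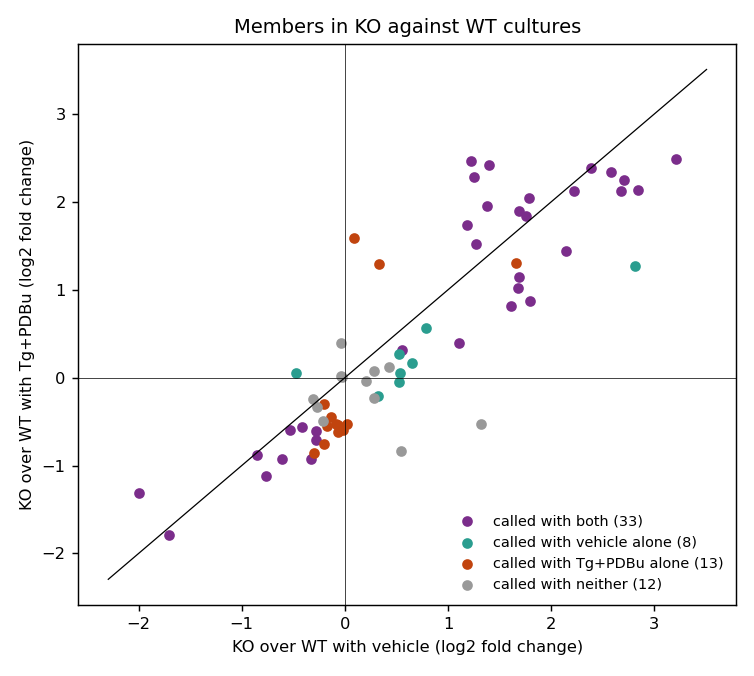
Fitted log2 fold change of KO over WT with vehicle (x axis) and with Tg+PDBu (y axis) for the 66 genes. Colours mark genes called under both conditions (33), with vehicle alone (8), with Tg+PDBu alone (13) and in neither (12); those called in both lie in the upper right and lower left.

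The difference between the KO and WT changes with Tg+PDBu was likewise fixed in part by the rule. In the TMM fit 0 of the 66 genes were called higher and 9 lower in KO, against 4.86% and 7.65% of all tested genes, and the median difference was -0.31 over the 66 genes and -0.12 over all genes. Among the 9 called genes, row 3493 had the lowest difference, at -0.71 ± 0.20 (SE). It held 172, 159, 169, 188 and 179 CPM in KO and 86.2 to 114 CPM (median 98.7) in WT Tg+PDBu libraries. With vehicle it held 24.2 to 39.8 CPM (median 37.2) in KO and 10.6 to 21.4 CPM (median 13.5) in WT. KO libraries lay above WT libraries in both conditions although the log2 change was smaller in KO. With library totals as the scale, 1 gene was called higher and 1 lower. Row 3493 was then at -0.49 and lost its call (edgeR adjusted p = 0.189). The count of lower genes was also 5 with RLE size factors, 5 without a filter on low counts, and 4 without KO female Tg+PDBu replicate 2. Among the 75 genes not retained, 55 were called lower in KO, which the rule fixed.

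LPS in culture was the treatment the rule excluded in WT cultures, and it was not used for KO LPS libraries, although KO vehicle libraries entered the rule. In KO cultures 10 of the 66 genes rose and 4 fell with LPS, against 8.71% and 14.1% of all tested genes, and the median log2 change was 0.12 over the 66 genes and -0.14 over all genes. Row 11163 held 105, 71.2, 63.7, 35.3 and 39 CPM in KO LPS libraries, against 5.98 to 14.5 CPM (median 8.13) in KO vehicle libraries, and these did not overlap. It rose by 2.90 ± 0.34 (SE) on the log2 scale (edgeR adjusted p = 3.38e-07). Row 19137 held 1.84, 0.763, 2.29, 3 and 1.08 CPM in KO LPS libraries, against at most 0.607 CPM with vehicle, and rose by 2.21 ± 0.45 (edgeR adjusted p = 0.000527). Row 7232 held 3.36, 5.59, 4.14, 4.31 and 4.34 CPM in KO LPS libraries, against 3.99 to 12.8 CPM with vehicle, and the groups overlapped. It fell by 0.93 ± 0.29 (edgeR adjusted p = 0.0218), a call that was lost without KO female LPS replicate 1 (adjusted p = 0.126), KO female vehicle replicate 1 (0.073) or KO male vehicle replicate 3 (0.0502). Row 8329 fell by 0.68 ± 0.16 (edgeR adjusted p = 0.00245), and its call was lost without KO female LPS replicate 2 (adjusted p = 0.0675). The count of genes that fell was 2 without that library, and DESeq2 called 16 genes higher.

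In WT cultures the rule held the LPS change within 1 in L, so the calls are only described. In the TMM fit 16 genes were called higher and 9 lower, against 21.8% and 26.2% of all genes, whereas 12 were called higher and 24 lower with library totals as the scale. TMM scaling raises every log2 change with LPS in WT cultures by 0.43 relative to library totals. Row 11163 held 14.3 to 40.5 CPM (median 31.7) in WT LPS libraries, against 7.24 to 24 CPM (median 13.3) with vehicle, which overlapped. It was called higher in WT as well, at 1.53 ± 0.31 (SE, edgeR adjusted p = 0.000204). For the difference between the KO and WT changes with LPS, 3 genes were called higher and 6 lower in KO, against 5.96% and 9.93% of all genes, and 13 were called higher and 0 lower with library totals as the scale. The direction of that balance turned with the scaling. The count of lower genes was also 2 without WT female LPS replicate 1, 0 without WT female LPS replicate 2, and 1 without WT male LPS replicate 1 or replicate 3, and that of higher genes was 5 without WT female LPS replicate 2 or WT female vehicle replicate 2.

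No difference between the sexes in the change with Tg+PDBu was called. In KO cultures 0 of the 66 genes passed the edgeR test of male minus female change (0% of all genes were called either way), 0 had an unadjusted p below 0.05 and DESeq2 called 0. In WT cultures 0 passed the edgeR test (0% of all genes), 4 had an unadjusted p below 0.05 and DESeq2 called 0. The WT females include culture 3, with its male-specific rows, and without it 0 genes passed the edgeR test and 7 had an unadjusted p below 0.05. Over all tested genes 248 in KO and 524 in WT had an unadjusted p below 0.05, and DESeq2 called 3 and 2. The median male minus female difference over the 66 genes was 0.20 in WT, with 48 genes above 0 and 18 below, against 0.0024 over all genes. In KO it was -0.045, with 28 genes above 0 and 38 below, against -0.024 over all genes. The gene with the lowest p in WT was row 9806, at 0.60 ± 0.19 (SE, edgeR adjusted p = 1.00).

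LPS in the animal gave libraries the rule did not use. Of the 66 genes, 49 passed the filter on low counts in sorted cells and 17 did not. None of the 17 was above 5.474 CPM in any sorted library. In WT Tg+PDBu cultures the mean levels of these 17 reached 209.8 CPM, with a median of 16.58 CPM. Library kits differ between culture and animal, and the cells behind these levels were not tested. At 24 h, 21 of the 49 tested genes rose and 1 fell in KO mice, against 12.6% and 10.8% of 15344 tested genes. In WT mice 25 rose and 1 fell, against 14.1% and 11.9%. The median log2 change over the 49 genes was 0.45 in KO and 0.67 in WT, against 0.00 over all tested genes in WT. A filter on low counts can favour genes that rose, so the counts without it are given too, and were 20 of 66 in KO and 23 of 66 in WT, against 5.07% and 5.76% of 32089 genes. The 24 h libraries lay wholly above the vehicle libraries on CPM for 12 of the 49 genes in KO and 10 in WT, against 4.42% and 3.95% of all genes. Within the first run of library numbers, 13 of 51 tested genes rose in KO and 19 in WT, against 1168 and 1305 of 15990 genes. Within the second run, 12 of 48 rose in KO and 15 in WT, against 607 and 976 of 15809 genes. Of the genes that rose, 19 rose in both genotypes, 2 in KO alone and 6 in WT alone. That split was not counted over all genes, so nothing particular to the 66 genes is read from it.

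The 66 genes together took 0.371 to 0.490% of counts with vehicle, 0.452 to 0.525% at 6 h and 0.652 to 0.895% at 24 h in KO mice. In WT mice they took 0.378 to 0.439% with vehicle, 0.442 to 0.565% at 6 h and 0.627 to 0.928% at 24 h. The 24 h libraries lay above all vehicle libraries in both genotypes. Row 2281 was the largest of the 66 genes in every sorted library. Without it the share at 24 h was 0.427 to 0.503% in KO, against 0.230 to 0.279% with vehicle. In WT mice it was 0.371 to 0.575% at 24 h, against 0.223 to 0.263% with vehicle.

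**Figure D5:**
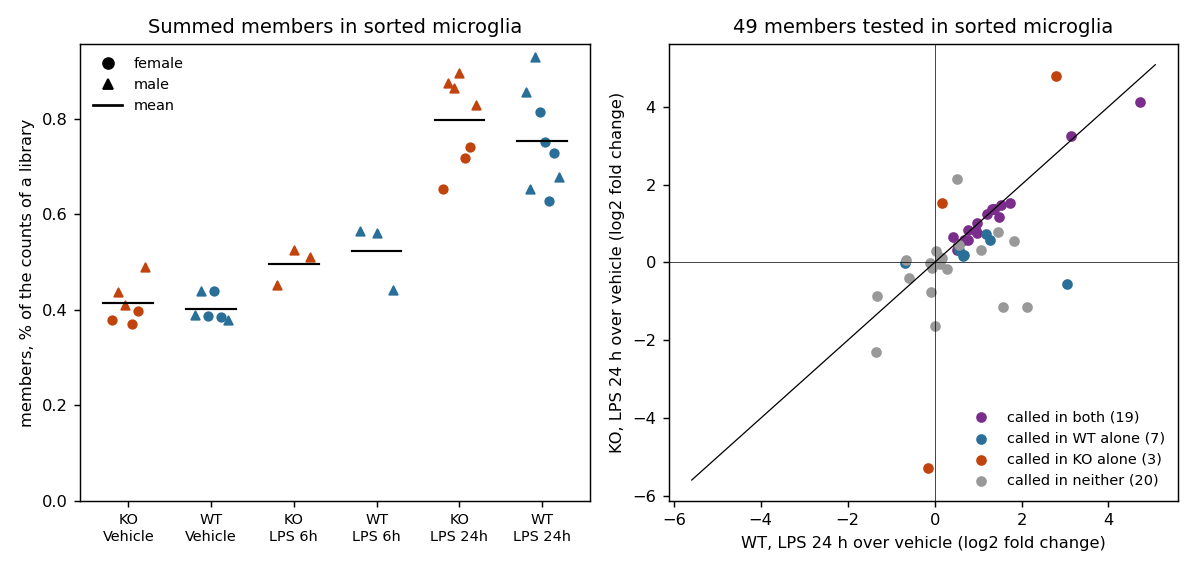
Left, share of all counts taken by the 66 genes in each sorted library, in percent, by genotype and time after LPS. Right, fitted log2 fold change at 24 h over vehicle in WT (x axis) and KO (y axis) mice for the 49 tested genes, coloured by call (both 19, WT alone 7, KO alone 3, neither 20, falls included).

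Row 4045, at low levels with vehicle, had the largest rise at 24 h in WT. In KO mice it held 0.769 to 3.95 CPM (median 1.71) with vehicle, 12.5, 29.3 and 27 CPM at 6 h and 24.2 to 51.7 CPM (median 29.1) at 24 h. In WT mice it held 0.801 to 2.23 CPM (median 1.64) with vehicle, 29, 29 and 13.2 CPM at 6 h and 21.3 to 60.7 CPM (median 32.8) at 24 h. Every LPS library lay above every vehicle library. It rose at 24 h by 4.12 ± 0.34 (SE, log2) in KO (edgeR adjusted p = 4.36e-09) and by 4.72 ± 0.35 in WT (edgeR adjusted p = 4.04e-10). In culture the same gene was not called with LPS, at -0.75 ± 0.40 in KO (edgeR adjusted p = 0.203), and held 1.19, 0.89, 0.444, 0.462 and 0.12 CPM in KO LPS libraries and 1.16 to 2.45 CPM (median 2.13) in WT LPS libraries. Doses, times and library kits differ between culture and animal, and the values are set side by side without a test.

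Row 5811, the gene with the largest WT change in L in culture, held 629.8 to 817 CPM (median 657) with vehicle, 720.4, 925 and 924 CPM at 6 h and 1487 to 2039.6 CPM (median 1969.7) at 24 h in KO mice. In WT mice it held 589.8 to 802 CPM (median 642) with vehicle, 1057, 954 and 736 CPM at 6 h and 1343 to 2298 CPM (median 1695) at 24 h. The 24 h libraries stood clear of vehicle in both genotypes, and it rose by 1.47 ± 0.11 (log2) in KO (edgeR adjusted p = 1.44e-09) and by 1.53 ± 0.11 in WT (edgeR adjusted p = 2.95e-10). Row 2281 rose by 1.00 ± 0.09 in KO (edgeR adjusted p = 2.31e-08) and by 0.99 ± 0.09 in WT (edgeR adjusted p = 1.34e-08). Row 5034, with the next largest culture change after row 5811, was not called at 24 h, at -0.02 ± 0.15 in KO (edgeR adjusted p = 0.946) and -0.10 ± 0.15 in WT (edgeR adjusted p = 0.681).

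Other large fitted changes at 24 h rested on uneven libraries. Row 7499 held 0.444 to 9.29 CPM (median 2.04) in KO 24 h libraries, against at most 0.509 CPM with vehicle, and 0.34 to 12.9 CPM (median 2.14) in WT 24 h libraries, against at most 1.17 CPM with vehicle. It rose by 3.26 ± 0.76 in KO (edgeR adjusted p = 0.00222) and by 3.15 ± 0.73 in WT (edgeR adjusted p = 0.00181), and the WT call was lost within the second run of library numbers (adjusted p = 0.289). Row 5785 held 0.682 to 80.6 CPM (median 2.55) in KO 24 h libraries, against 0.307 to 1.53 CPM with vehicle. In WT mice it held 0.163 to 79.6 CPM (median 1.6) at 24 h, against 0.297 to 87.1 CPM (median 0.549) with vehicle. Libraries near 80 CPM stood beside libraries near 1 CPM within the same group. Its rise in KO of 4.78 ± 1.46 (edgeR adjusted p = 0.0178) was lost without KO female 24 h replicate 1 (adjusted p = 0.136) and within either run (adjusted p = 0.139 and 0.187). The gene that fell in WT was row 6561, by 0.69 ± 0.23 (edgeR adjusted p = 0.0254), and its call was lost without WT female vehicle replicate 2 (adjusted p = 0.119) and within either run (adjusted p = 0.22 and 0.373).

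The gene that fell in KO was row 7748. It held 2.45 to 8.15 CPM (median 4.86) with vehicle, 0.755, 2.16 and 5.63 CPM at 6 h and 0 to 1.77 CPM (median 0) at 24 h in KO mice. In WT mice it held 1.6 to 3.74 CPM (median 2.94) with vehicle, 0.339, 3.12 and 4.61 CPM at 6 h and 0.17 to 5.37 CPM (median 2.04) at 24 h. At 24 h the KO libraries lay below all KO vehicle libraries, and the WT libraries spread across the WT vehicle range. The fitted fall in KO was called (edgeR adjusted p = 0.000158). All 4 KO male 24 h libraries were at 0, so its fitted size depends on the added prior count and is not printed as a fold. In WT the change was -0.16 ± 0.62 (edgeR adjusted p = 0.887). The difference between KO and WT at 24 h was not called in the edgeR fit (adjusted p = 0.153), and was called without a filter (adjusted p = 0.0202) and by DESeq2 (adjusted p = 0.00183).

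In the filtered edgeR fit no gene of the group was called different between the genotypes in sorted cells. For the difference between the KO and WT changes at 24 h, edgeR called 0 of 49 genes either way, and DESeq2 called 1, row 7748. An unadjusted p below 0.05 was found for 5 of the 49 genes and for 537 of all 15344 tested genes. For KO against WT levels edgeR called 0 with vehicle (0.0196% and 0.00652% of all genes were called higher and lower), 0 at 6 h in males (0.00652% and 0.013%) and 0 at 24 h (0.013% and 0.00652%). At an unadjusted p below 0.05 there were 2 genes with vehicle, 1 at 6 h and 4 at 24 h. Over all 15344 tested genes there were 728, 444 and 810. DESeq2 called 0, 0 and 1 gene of the group. Row 4045, lower in KO cultures, was at 0.36 ± 0.37 (SE, log2 KO over WT) with vehicle and at -0.24 ± 0.25 at 24 h in sorted cells. A missed threshold does not show that the genotypes were alike.

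At 6 h in males, 10 of 49 genes rose in KO and 0 fell, against 4.27% and 2.85% of all genes, and 8 rose in WT and 0 fell, against 6.73% and 3.73%. Of these, 7 rose in both genotypes, and 5 rose at both times in both, overlaps that were not counted over all genes. Row 12218 held 92.4, 182 and 183 CPM at 6 h in KO males, against 15.3 to 38.4 CPM (median 28.8) in KO vehicle libraries of both sexes. It held 291, 281 and 109 CPM at 6 h in WT males, against 16.8 to 41.7 CPM (median 23.7) with vehicle. The 6 h libraries lay well above vehicle, and in WT it rose by 2.98 ± 0.41 (edgeR adjusted p = 0.000132). Row 4045 rose by 3.67 ± 0.48 in KO (edgeR adjusted p = 0.000254) and by 3.56 ± 0.47 in WT (edgeR adjusted p = 0.000113). Row 9806 rose by 2.53 ± 0.77 in KO (edgeR adjusted p = 0.0429), a call lost without KO male vehicle replicate 1, 2 or 3 or KO male 6 h replicate 2 or 3 (adjusted p from 0.0648 to 0.526). With 3 libraries a group these counts rest on the spread pooled over all 10 sorted groups, and a fit of the compared groups alone called 0 genes in either genotype. The KO count was 6 without vehicle replicate 1, 2 without vehicle replicate 2, 3 without vehicle replicate 3, and 2 without 6 h replicate 2 or replicate 3. The WT count was 14, with 1 gene lower, without 6 h replicate 3.

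In the TMM fit most of the genes called between the times were lower at 6 h. Of the 49 genes, 2 were higher and 9 lower at 6 h than at 24 h in KO males, against 2.93% and 3.55% of all genes, and 2 were higher and 10 lower in WT males, against 2.28% and 2.78%. With library totals as the scale, 6 were higher and 8 lower in KO and 2 were higher and 9 lower in WT. Row 4113 held 32.4 to 60.8 CPM (median 40.4) with vehicle, 47.1, 33.5 and 34.3 CPM at 6 h and 74.2 to 133 CPM (median 106) at 24 h in KO mice of both sexes. In WT mice it held 34.3 to 53.9 CPM (median 40) with vehicle, 43.7, 36 and 38 CPM at 6 h and 63 to 122 CPM (median 92.8) at 24 h. The 6 h libraries lay in the vehicle range and the 24 h libraries above it. In males the log2 change of 6 h over 24 h was -1.74 ± 0.22 in KO (edgeR adjusted p = 1.71e-05) and -1.47 ± 0.22 in WT (edgeR adjusted p = 0.000208). Row 9059 held 59.4 to 72.9 CPM with vehicle, 65.9, 75.5 and 83.9 CPM at 6 h and 147 to 199 CPM (median 158) at 24 h in KO mice. In WT mice it held 56.8 to 67.5 CPM with vehicle, 68, 77.6 and 66.2 CPM at 6 h and 104 to 203 CPM (median 138) at 24 h. Its 24 h libraries stood above all others, and the WT difference of 6 h against 24 h was -1.28 ± 0.16 (edgeR adjusted p = 2.69e-05). Row 12218 went the other way in WT males, at 1.59 ± 0.36 (edgeR adjusted p = 0.01), a call lost without WT male 6 h replicate 1 (adjusted p = 0.0804) or replicate 2 (0.0842). A fit of the compared groups alone called 0 genes higher in either genotype and 3 lower in WT. The count of higher genes moved between 1 and 5 in KO and between 0 and 7 in WT as single libraries were left out, with 5 in KO without 6 h replicate 1, 1 in KO without 6 h replicate 2 or 3 or 24 h replicate 1, 3 or 4, 7 in WT without 6 h replicate 3, 0 in WT without 6 h replicate 1 or 2, and 1 in WT without 24 h replicate 1, 2 or 4.

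The 75 genes not retained in KO cultures were also measured in sorted cells. Of 57 tested, 9 rose and 7 fell at 24 h in KO, against 12.6% and 10.8% of all tested genes. In WT 11 rose and 6 fell, against 14.1% and 11.9%. Among the 49 retained genes, 21 rose and 1 fell in KO, and 25 rose and 1 fell in WT. The difference between the groups of genes was not tested. Of the 19 retained genes that rose at 24 h in both genotypes, LPS in WT cultures, which the rule used, had 5 called higher and 5 lower, where 21.8% and 26.2% of all genes were called. LPS in KO cultures had 2 of the 19 called higher, where 8.71% of all genes were.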

How the data were processed

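The authors deposited raw counts per gene for cultured and for sorted microglia as separate tables. The submitters' processing notes name, with no role given, the build GRCm38 and the tools Salmon 1.10.1, STAR 2.7.10a and Trim Galore 0.6.7. Strand use in counting is not given in the sources used here, so overlapping and near-identical genes may share counts. CPM here is a count over the column's total. Each table was fitted with edgeR 4.0.16 (R 4.3.3; TMM, filterByExpr at min.count 10 and min.total.count 15, quasi-likelihood F test, group means with the sexes weighted equally), with Benjamini-Hochberg adjustment over the table and a call at adjusted p below 0.05. The SE is the fitted log2 change over the root of F. The scripts were tested on simulated data. The alternatives were DESeq2 1.42.0, RLE size factors, no filter, the compared groups alone, a replicate block, number runs, leaving out each library, and library totals as the scale. Count columns with no sample numbered 0.

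Named genes were, per comparison, up to 2 of the largest rises and 2 of the largest falls among called genes that moved one way in each sex and averaged at least 1 in log2 CPM, or the lowest p where none was called, plus extremes of the rule. The genes, lists and rule were chosen with earlier results of these data known. Culture numbers were checked as pairs: deviations of libraries with the same number correlated in all 30 pairs at 0.140 to 0.649 (genes with mean CPM of at least 10), above the limit of 0.1, and the numbers were taken as pairing the libraries. Among the fits, only the replicate block used this pairing. The culture p-values, SEs and calls of the main fit are unpaired.

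The submitters' metadata conflict in places on whether sorted libraries were cultured; the sample labels were followed.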

Additional observations from a re-analysis of the deposited data

Results flagged for a closer look

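Within groups of 4 to 10 libraries, single libraries stood apart from their group by Dixon's criterion in 15 of 120 groups tested, and chance flags about 1 group in 20. In culture these were the summed CPM of the 66 genes in WT male Tg+PDBu replicate 3 (43828), row 5034 in KO female LPS replicate 2 (29.0 CPM), row 3493 in KO female vehicle replicate 3 (24.2 CPM) and row 4045 in KO female Tg+PDBu replicate 2 (22.8 CPM). They were also row 3460 in WT female vehicle replicate 1 (0.330 CPM), row 19137 in WT female vehicle replicate 2 (4.39 CPM), and, in WT female culture 3, row 1568 with vehicle (1.75 CPM) and row 1696 with LPS (28.8 CPM).

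In sorted cells, KO female 24 h replicate 1 stood apart for row 4045 (51.7 CPM) and row 12218 (125 CPM), and KO female 24 h replicate 3 for row 7748 (1.77 CPM). KO male vehicle replicate 3 stood apart for row 4113 (60.8 CPM) and KO male 24 h replicate 1 for row 9059 (199 CPM). WT male vehicle replicate 3 stood apart for row 12218 (41.7 CPM) and WT female vehicle replicate 1 for row 5785 (87.1 CPM).

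The change with Tg+PDBu differed between KO and WT for 9 of the 66 genes and the change with LPS for 9, by the test of the difference itself. The contrast with Tg+PDBu was used by the rule, and both counts change with the scaling.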

How the results depend on the processing

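The rule gave 76 genes (60 shared) with a pseudocount of 0.5, 49 (45 shared) with 2, 68 (49 shared) with TMM-scaled values and 57 (57 shared) without WT female culture 3, and 61 to 74 as single libraries were left out. With library totals as the scale (added after seeing the data), counts higher/lower were 1 and 1 for the KO minus WT Tg+PDBu change, 24 lower for LPS in WT cultures, 13 and 0 for the KO minus WT LPS change, 4 lower for KO against WT with vehicle, 9 lower with Tg+PDBu, 44 and 7 with LPS, 2 lower at 24 h in KO and 6 higher at 6 h against 24 h in KO. RLE gave 5 lower for the Tg+PDBu change and 5 lower for LPS in WT cultures. Without a filter 5 were lower for the Tg+PDBu change, 2 lower at 24 h in KO, 1 lower for KO against WT at 24 h and 1 higher at 6 h against 24 h in WT. DESeq2 gave 1 higher for the Tg+PDBu change, 16 higher with LPS in KO cultures, 2 lower at 24 h in KO and 2 in WT, 1 lower for the 24 h change of KO minus WT, 1 lower for KO against WT at 24 h and 4 higher at 6 h against 24 h in KO. The compared groups alone gave 0 risen at 6 h in either genotype, 0 higher at 6 h against 24 h in KO and in WT, and 3 lower in WT. The first and the second number run gave 13 and 12 risen at 24 h in KO, the second 15 in WT, and 0 fell in WT in either. Without WT female culture 3, 17 were lower in KO with vehicle. The cause was not tested beyond these constructions.

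Leaving out single libraries gave 0 to 1 higher and 4 to 9 lower for the Tg+PDBu change, 9 to 11 and 2 to 4 for LPS in KO cultures, 14 to 19 and 6 to 11 in WT, 2 to 5 and 0 to 8 for the LPS change. KO against WT gave 23 to 26 and 18 to 21 with Tg+PDBu, 27 to 31 and 7 to 15 with vehicle, 24 to 28 and 12 to 19 with LPS. Sorted cells gave 18 to 23 and 1 to 2 at 24 h in KO, 22 to 26 and 0 to 1 in WT, 2 to 12 and 0 at 6 h in KO, 6 to 14 and 0 to 1 in WT, and for 6 h against 24 h 1 to 5 and 8 to 9 in KO, 0 to 7 and 8 to 11 in WT. With the culture number as a replicate block, counts were 0 and 12 for the Tg+PDBu change, 15 and 5 for LPS in KO, 23 and 12 in WT, and 4 and 7 for the LPS change, and no count moved by over 1.5 times. Of the values of named genes, 264 kept their call under the settings other than library totals, 25 lost it and 3 gained one; with a library left out 596 kept it and 60 lost it. At these depths genes under 1 CPM rest on few counts, and 17 genes could not be tested in sorted cells.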
